A study of Mus musculus with 8 samples.

Results

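The genes described here are 10 amino acid transporters of the pancreatic alpha cell: Slc38a5, Slc38a4, Slc38a1, Slc38a2, Slc38a3, Slc7a2, Slc7a5, Slc7a8, Slc3a2 and Slc1a5. They were chosen by symbol and not by a rule on their values, though with earlier results of these data known. Each matched 1 row among the 75078 Ensembl mouse genes of the table. Polyadenylated RNA was sequenced from αTC1-6, a mouse line of glucagon-making alpha cells, after transfection with an empty plasmid (4 libraries, numbered 31, 32, 33 and 34) or with a plasmid that overexpresses Yy1 (4 libraries, numbered 45, 46, 47 and 48). Yy1 is a zinc finger factor that can activate or repress genes. Both groups are the same cell line, seeded 24 h before transfection and held in DMEM that the design text labels 11 mM, and libraries were made with a directional kit. The labels used here give neither the time of harvest nor the amino acid content of the medium. The labels do not say that the libraries came from separate cultures, so each p-value rests on a spread between samples that may be technical only. All libraries are of 1 cell line, and how the groups were handled is not given, so handling and plasmid cannot be told apart. The share of cells that took up the plasmid is not given, and in bulk RNA fewer cells with a transcript and less transcript per cell cannot be told apart either. The smallest library, empty plasmid 33, was low for most of the transporters, and values without it are given below.

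Alpha cells sense amino acids as well as glucose. Glucagon drives amino acid breakdown in the liver, and when that signal fails, circulating amino acids build up and alpha cells secrete more glucagon and multiply, a loop known as the liver to alpha cell axis. Amino acids enter through carriers of the Slc38 family (sodium-coupled transport of glutamine and other small neutral amino acids), the Slc7 family (cationic and large neutral amino acids) and Slc1a5 (exchange of glutamine and other neutral amino acids). Slc38a5 is known to be induced in mouse alpha cells when glucagon signalling is blocked. Amino acids that have entered activate mTORC1, the kinase complex that promotes growth. Their shortage activates ATF4, a transcription factor that induces several of these carriers.

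The set of promoter windows used here (build GRCm38.p6), from 250 bases before to 50 bases after the start site, covered 5 of the 10 genes. Windows for the other genes were not at hand. Windows are shown for the highest of the Slc38 genes, for the one known to respond to amino acid shortage, and for the shared heavy chain, because the overexpressed factor binds promoters. Each is written 5′ to 3′ along the gene, and capitals mark a GC box (GGGCGG) or an E-box (CACGTG) on either strand, both searched after the windows had been seen.

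Slc38a5, chrX:8271131-8271430, plus strand: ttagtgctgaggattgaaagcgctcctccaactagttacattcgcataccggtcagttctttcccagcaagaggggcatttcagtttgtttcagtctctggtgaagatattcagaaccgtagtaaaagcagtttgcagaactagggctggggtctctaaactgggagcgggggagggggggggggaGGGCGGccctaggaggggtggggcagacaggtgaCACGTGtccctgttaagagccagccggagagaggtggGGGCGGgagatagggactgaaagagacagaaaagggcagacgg

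Slc38a2, chr15:96699679-96699978, minus strand: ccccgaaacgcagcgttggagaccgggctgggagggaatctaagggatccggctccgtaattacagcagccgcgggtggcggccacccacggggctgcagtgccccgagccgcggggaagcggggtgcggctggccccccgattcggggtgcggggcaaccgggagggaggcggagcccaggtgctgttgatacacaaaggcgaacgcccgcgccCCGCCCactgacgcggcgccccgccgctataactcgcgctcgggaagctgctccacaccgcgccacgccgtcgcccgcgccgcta

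Slc3a2, chr19:8713848-8714147, minus strand: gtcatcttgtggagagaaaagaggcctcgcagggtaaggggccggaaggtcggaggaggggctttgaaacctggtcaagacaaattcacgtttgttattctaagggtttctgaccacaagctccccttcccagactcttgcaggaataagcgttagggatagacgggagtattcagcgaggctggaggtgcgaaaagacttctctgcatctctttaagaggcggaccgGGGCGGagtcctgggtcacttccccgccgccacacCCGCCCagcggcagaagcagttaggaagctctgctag

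Motifs were searched on both strands in the 7 windows of these 5 genes, which are Slc38a5, Slc38a2, Slc3a2, Slc7a8 and Slc38a4 with 3 start sites. The YY1 motif AANATGGCG matched 0 of the 7 and its core ATGGCG, which lies within it, also 0, beside 2.38% and 8.93% of all 32851 windows. The amino acid response element bound by ATF4, searched as TGATGNAA, and the cAMP response element TGACGTCA matched 0 of the 7, beside 3.97% and 1.79% of all windows. A GC box was in 6 of the 7, beside 35.7% of all windows, and an E-box was in 1, that of Slc38a5, beside 7.15%. The Slc38a2 window was 73% G and C and that of Slc38a5 56%, where the median window had 52.7%. These are matches of letters in short windows and say nothing on binding, in particular since known response elements of Slc38a2 lie outside such a window.

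In this cell line Slc38a5, Slc7a2 and Slc38a4 had the highest levels per transcript length of the 10 on each of 3 length scales, and Slc38a3 was close to undetected. None of the tested transporters passed the test of a difference between the plasmids. Levels are given as CPM (counts scaled to library size, with TMM factors). Of the 10 genes, 9 had enough counts to be tested, and edgeR's quasi-likelihood test called 0 of the 9 at an adjusted p under 0.05. Over all 15916 tested genes the share called was 0.515%, with 0.496% higher and 0.0188% lower with the Yy1 plasmid, so a count of 0 among 9 genes does not set the transporters apart. Among the 6251 tested coding genes with a mean log2 CPM of at least 5, 1 was called, and that was Yy1. Unadjusted p values under 0.05 were also found for 0 of the 9, against 5.42% of all tested genes, and DESeq2 and limma-voom called 0. Libraries of the groups overlapped for all 9, where 3.95% of tested genes had none. Log2 fold changes of the 9 ran from -0.028 to 0.086, with a median of 0.029 beside -0.0025 over all tested genes. The 95% intervals of the 9 together ran from -0.137 to 0.213 on the log2 scale, or from 0.909 to 1.16 as a ratio. Changes beyond these sizes thus lay outside the interval of each tested transporter. The intervals are per gene and rest on a spread between samples that may be technical only. They hold for bulk RNA, in which the share of cells with the plasmid is not given. Yy1 itself stood at 175 ± 5.33 CPM in empty plasmid libraries and at 5233 ± 464 CPM in Yy1 plasmid libraries (SD, n = 4).

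**Figure D1:**
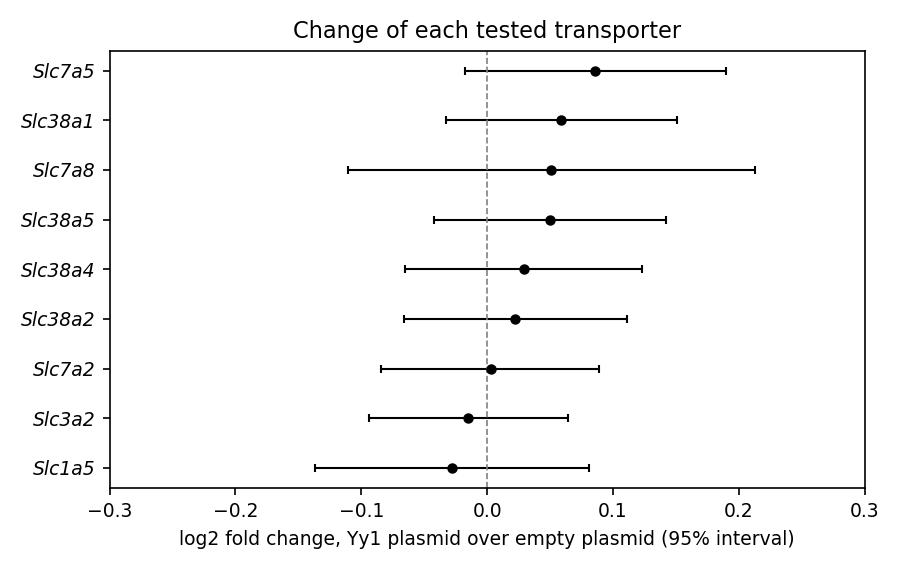
Log2 fold change of each of the 9 tested transporters (points) with its 95% interval from edgeR (bars), Yy1 plasmid over empty plasmid, 4 libraries per group. Every interval includes 0, and the points lie between -0.028 and 0.086.

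Slc38a5 (ENSMUSG00000031170) encodes SNAT5, a system N carrier that takes up glutamine, histidine, serine, asparagine and glycine with sodium in exchange for protons. It stood at 1047, 1090.2, 956 and 1059 CPM in empty plasmid libraries, by increasing sample number, and at 1024, 1092, 1081 and 1102 CPM in Yy1 plasmid libraries. The lowest value was that of empty plasmid 33, and the other 3 empty plasmid libraries lay inside the range of the Yy1 plasmid libraries. The means were 1038 ± 57.8 and 1075 ± 34.8 CPM (SD, n = 4), with a log2 fold change of 0.050 (standard error 0.0445, adjusted p by edgeR = 0.986). Without empty plasmid 33 the log2 fold change was 0.013.

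Slc38a3 (ENSMUSG00000010064) encodes SNAT3, the other system N carrier of the list, which is abundant in liver and kidney. It had 0, 5, 4 and 0 counts in empty plasmid libraries and 4, 0, 0 and 2 counts in Yy1 plasmid libraries. Both groups were thus at or near the limit of 3 counts that a count of 0 allows, which comes to between 0.09 and 0.145 CPM depending on library depth. It did not pass the filter on low counts, and no fold is given. Of the system N pair in the list, only Slc38a5 was detected above that limit in every library.

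System A carriers take up alanine, serine and glutamine together with sodium, and Slc38a1, Slc38a2 and Slc38a4 encode its members SNAT1, SNAT2 and SNAT4. In RefSeq's mouse annotation, Slc38a1, Slc38a2 and Slc38a4 are consecutive genes on chromosome 15. Slc38a4 (ENSMUSG00000022464), an imprinted gene in several mouse tissues whose product also carries cationic amino acids, stood at 509, 536, 460.3 and 535 CPM in empty plasmid libraries and at 522, 529, 506 and 526 CPM in Yy1 plasmid libraries. Empty plasmid 33 was again lowest, and the spread was 35.5 CPM among empty plasmid libraries and 10 CPM among Yy1 plasmid ones (SD, n = 4). Its log2 fold change was 0.029 (standard error 0.0452, adjusted p by edgeR = 0.997), and -0.017 without empty plasmid 33.

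Slc38a2 (ENSMUSG00000022462), the system A gene known to be induced by amino acid shortage, had 194, 198, 185 and 203 CPM in empty plasmid libraries and 184, 202, 205 and 201 CPM in Yy1 plasmid libraries. The lowest library of all 8 was Yy1 plasmid 45, followed by empty plasmid 33. The log2 fold change was 0.022 (standard error 0.0426, adjusted p by edgeR = 0.997), and -0.002 without empty plasmid 33.

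Slc38a1 (ENSMUSG00000023169), the third gene of this chromosome 15 group, had 171, 189.8, 183 and 197 CPM in empty plasmid libraries and 184, 193, 197 and 198 CPM in Yy1 plasmid libraries. Here empty plasmid 31 was lowest, and the other 7 libraries lay within 183 to 198 CPM. The log2 fold change was 0.059 (standard error 0.0443, adjusted p by edgeR = 0.98), with 0.019 without empty plasmid 31 and 0.091 without empty plasmid 34. The ratio of Slc38a1 to Slc38a2, each per length of its median coding transcript, was 0.873 ± 0.0438 in empty and 0.896 ± 0.0193 in Yy1 plasmid libraries (SD, n = 4; exact permutation test over 70 arrangements, two-sided p = 0.514, adjusted over 3 ratios 0.514). Although neighbours on the chromosome, these genes differed in level: per kb of median coding transcript, Slc38a4 stood at 259.9 ± 18.1 CPM in empty plasmid libraries, beside 41.8 ± 1.66 for Slc38a2 and 36.5 ± 2.23 for Slc38a1 (SD, n = 4). Slc38a4 was the highest of the 3 on the other length scales too.

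Slc7a2 (ENSMUSG00000031596) encodes CAT2, which carries arginine, lysine and ornithine without sodium. Arginine is a classical stimulus of glucagon secretion. The gene stood at 1086, 1113, 1046 and 1143 CPM in empty plasmid libraries and at 1076, 1112, 1064 and 1143 CPM in Yy1 plasmid libraries. The highest library of each group had the same rounded value, and the other 3 Yy1 plasmid libraries lay within the range of the empty plasmid ones. Its log2 fold change of 0.003 (standard error 0.0417, adjusted p by edgeR = 0.997) was the closest to 0 of the 9. Slc7a2 makes splice forms of different affinity for arginine, which a count per gene cannot separate. Slc7a1, which encodes the other widely expressed arginine carrier CAT1, stood at 91.8 ± 1.93 CPM in empty plasmid libraries and 96.4 ± 5.48 CPM in Yy1 plasmid libraries (SD, n = 4). Per length of the longest coding transcript, Slc7a2 had 139 ± 5.2 CPM per kb and Slc7a1 12.8 ± 0.269 CPM per kb with the empty plasmid. Per length of the median coding transcript the gap was smaller, with 298 ± 11.2 and 74.4 ± 1.57 CPM per kb.

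Slc3a2 (ENSMUSG00000010095) encodes the heavy chain 4F2hc (CD98), a glycoprotein that brings several Slc7 light chains to the cell surface. It stood at 143, 139, 137 and 145 CPM in empty plasmid libraries and at 142, 137, 141 and 139.8 CPM in Yy1 plasmid libraries. Its libraries varied least among the 9 tested transporters, with an SD of 2.69% of the mean among empty and 1.69% among Yy1 plasmid libraries. The log2 fold change was -0.015 (standard error 0.0382, adjusted p by edgeR = 0.997).

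Slc7a5 (ENSMUSG00000040010) encodes LAT1, a light chain of Slc3a2 that exchanges large neutral amino acids such as leucine and feeds mTORC1. It had 147, 157, 134 and 155 CPM in empty plasmid libraries and 154, 148, 169.5 and 159 CPM in Yy1 plasmid libraries. Yy1 plasmid 47 was highest and empty plasmid 33 lowest, and the other 6 libraries lay between 147 and 159 CPM. The means were 148 ± 10.3 and 158 ± 9.05 CPM (SD, n = 4). Its log2 fold change of 0.086 (standard error 0.0499, 95% interval from -0.018 to 0.190) was the largest of the 9 and did not pass the test (edgeR adjusted p = 0.946). Without empty plasmid 33 it was 0.042.

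Slc7a8 (ENSMUSG00000022180) encodes LAT2, the other light chain of the list, which accepts small as well as large neutral amino acids. It stood at 13.7, 11.9, 12.5 and 13.6 CPM in empty plasmid libraries and at 12.2, 12.7, 14.3 and 14.5 CPM in Yy1 plasmid libraries. The 2 highest libraries carried the Yy1 plasmid, the lowest an empty one, and the groups overlapped. Its log2 fold change was 0.051 (standard error 0.0782, adjusted p by edgeR = 0.997). It was 0.011 without empty plasmid 32, 0.012 without Yy1 plasmid 48 and 0.093 without Yy1 plasmid 45. With 256 to 475 counts per library it had the fewest counts of the tested transporters and had the widest interval, from -0.111 to 0.213.

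Heavy and light chains can be set against each other within a library. Per length of the median coding transcript, the ratio of Slc7a5 to Slc3a2 was 0.193 ± 0.0113 in empty and 0.207 ± 0.0105 in Yy1 plasmid libraries, and that of Slc7a8 to Slc3a2 was 0.0145 ± 0.000699 and 0.0152 ± 0.00128 (SD, n = 4). The size of these ratios depends on the length used: per length of the longest coding transcript they were 0.84 ± 0.0492 and 0.902 ± 0.0458 for Slc7a5, and 0.063 ± 0.00304 and 0.0661 ± 0.00558 for Slc7a8. The comparison between plasmids does not depend on it, since a length is the same in every library. Neither ratio passed the exact permutation test over 70 arrangements (two-sided p = 0.114 and 0.4, adjusted over 3 ratios 0.343 and 0.514, where the smallest p possible is 0.0286). The difference of the Slc7a5 to Slc3a2 ratio was 0.102 on the log2 scale, with groups that overlapped, and without empty plasmid 32 it was 0.135 (exact permutation p = 0.0286, unadjusted, the smallest that 3 against 4 libraries allow). Slc7a6, a further light chain of Slc3a2 that exchanges cationic for neutral amino acids and was singled out after its values were seen, stood at 105 ± 7.04 CPM per kb of median and 19.4 ± 1.3 per kb of longest coding transcript in empty plasmid libraries. The 6 light chain genes Slc7a5, Slc7a6, Slc7a7, Slc7a8, Slc7a10 and Slc7a11 summed, per median length, to 151 ± 9.98 CPM per kb beside 218 ± 5.88 for Slc3a2 in empty and to 157 ± 4.42 beside 216 ± 3.64 in Yy1 plasmid libraries (SD, n = 4). Per longest length the order turned round, with 65.1 ± 4.25 for the light chains beside 50.2 ± 1.35 for Slc3a2 in empty and 68.4 ± 2.94 beside 49.7 ± 0.838 in Yy1 plasmid libraries. Which of them was more abundant therefore cannot be read from these values.

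Slc1a5 (ENSMUSG00000001918) encodes ASCT2, a sodium-dependent exchanger of glutamine, serine, alanine and other neutral amino acids. Its levels were 65.4, 71.8, 60.5 and 67.8 CPM in empty plasmid libraries and 66.8, 68.5, 65.7 and 59.7 CPM in Yy1 plasmid libraries. The highest and the second lowest library both carried the empty plasmid. The log2 fold change of -0.028 (standard error 0.0526, adjusted p by edgeR = 0.997) turned to 0.010 without empty plasmid 32 or without Yy1 plasmid 48.

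**Figure D2:**
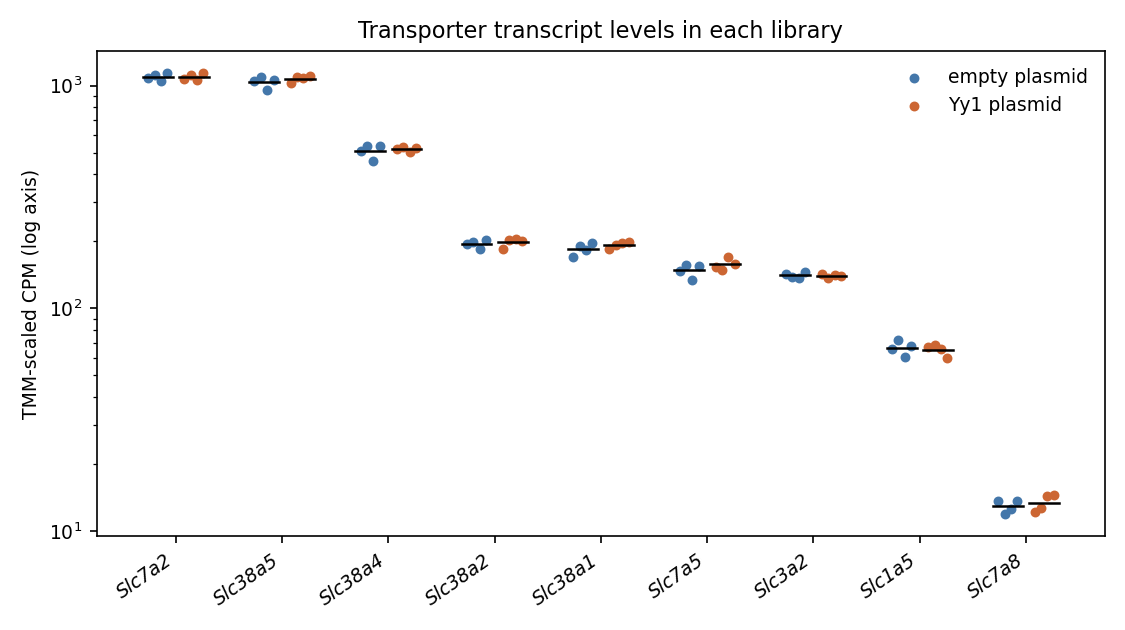
TMM-scaled CPM (log axis) of the 9 tested transporters in each of the 8 libraries. Points are libraries, empty plasmid in blue and Yy1 plasmid in orange, and black lines are group means. The groups overlap for each gene, and levels run from about 13 CPM for Slc7a8 to 1097 CPM for Slc7a2.

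Transcript levels of different genes are comparable only per length. Divided by the median length of a gene's annotated coding transcripts, the levels with the empty plasmid were 558 ± 31.1 CPM per kb for Slc38a5, 298 ± 11.2 for Slc7a2, 259.9 ± 18.1 for Slc38a4 and 218 ± 5.88 for Slc3a2 (SD, n = 4). There followed Slc7a5 with 42.2 ± 2.94 CPM per kb, Slc38a2 with 41.8 ± 1.66, Slc38a1 with 36.5 ± 2.23, Slc1a5 with 24 ± 1.71 and Slc7a8 with 3.17 ± 0.212. Slc7a5 and Slc38a2 were neighbours in this order that overlapped in both groups, and no other neighbours did. Ranked by this measure among 21678 coding genes, Slc38a5 was number 93, Slc7a2 number 269 and Slc38a4 number 348, while Slc7a8 was number 9693. With the longest coding transcript as length, the ranks of these genes were 48, 354, 389 and 9241.

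The level of Slc3a2 depended on the length used. Its 8 annotated coding transcripts have a median length of 647 bases and a longest of 2813 bases, so that on the longest transcript its level was 50.2 ± 1.35 CPM per kb, lower by a factor of 4.35. On that scale Slc38a5 had 524 ± 29.1 CPM per kb, Slc7a2 139 ± 5.2 and Slc38a4 129.7 ± 9.02, and the order of the 10 genes did not change. The empty plasmid libraries of Slc7a2 and Slc38a4 then overlapped, as did those of Slc38a1 and Slc1a5 and again those of Slc7a5 and Slc38a2. Per length of all exons joined, 4 of the 10 genes changed place: Slc7a5 came before Slc3a2 and Slc1a5 before Slc38a1. Slc38a5 was highest and Slc38a3 lowest on all 3 scales.

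**Figure D3:**
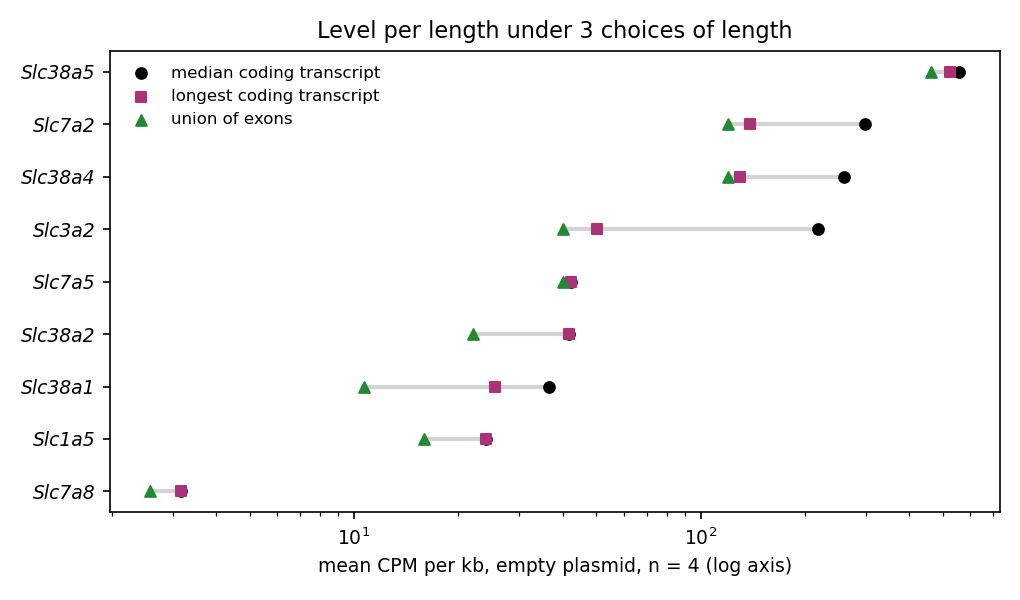
Mean CPM per kb with the empty plasmid (n = 4, log axis) of the 9 tested transporters, with length taken as the median coding transcript (black circles), the longest coding transcript (squares) or the union of exons (triangles). Slc38a5 is highest on each scale, and Slc3a2 moves most, from 218 to 50.2 CPM per kb between the first 2 scales.

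A single library was low for most of the transporters. Empty plasmid 33, also the smallest library with 20679804 counts in a range up to 33347445, was the lowest of the 4 empty plasmid libraries for 7 of the 9 tested transporters. It was lowest for 29.9% of 6251 coding genes with a mean log2 CPM of at least 5. Its median deviation from the mean of the 8 libraries was -0.087 log2 units over the 9 transporters and 0.005 over those coding genes. The 10 genes summed to 3174 CPM there, against 3376 to 3519.9 in the other empty plasmid libraries and 3366 to 3543 with the Yy1 plasmid. Fits without this library called 0 of the 9. Log2 fold changes were then 0.013 for Slc38a5, 0.053 for Slc38a1, 0.042 for Slc7a5 and 0.038 for Slc7a8. The other 5 were below 0, at -0.017 for Slc38a4, -0.002 for Slc38a2, -0.019 for Slc7a2, -0.029 for Slc3a2 and -0.068 for Slc1a5.

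**Figure D4:**
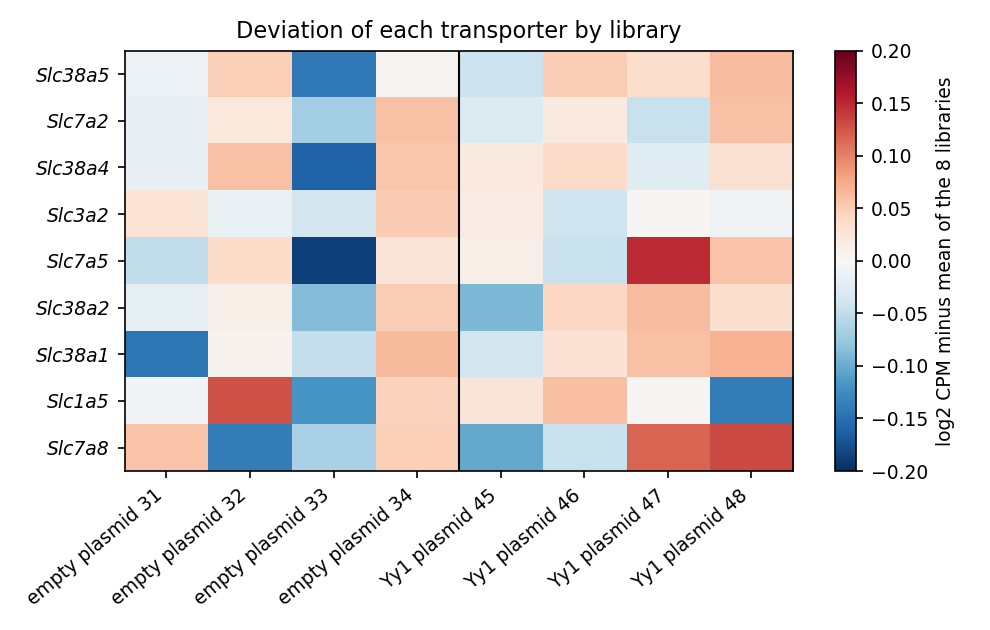
Log2 CPM of each tested transporter in each library minus its mean over the 8 libraries, from blue (low) to red (high), with the empty plasmid left of the line. Empty plasmid 33 is blue in all 9 rows, with a median of -0.087.

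As a description of likeness, log2 CPM over the 8 libraries was compared with that of 8245 other coding genes of at least 4 in mean log2 CPM. Nearest to Slc38a5 were Zfp969, Atrn and Slc35e2 (Pearson r of 0.970, 0.963 and 0.961), and near to Slc7a5 were Ndufa11 and Sez6l2 (0.966 and 0.957). These values share the 8 libraries and their depth and carry no test.

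The other genes of amino acid handling were taken from lists of textbook roles. Over all tested genes 0.515% were called, so a count of 0 called in any of these lists does not set it apart. Of 40 other plasma membrane transporters 18 were tested, and edgeR called 0 in either direction, with 14 estimates above and 4 below 0 and a median log2 fold change of 0.028. The smallest p belonged to Slc6a6, the taurine transporter, with 80.9, 82.9, 82.2 and 88.8 CPM in empty plasmid libraries and 91.6, 89.6, 90.2 and 91.1 CPM in Yy1 plasmid libraries. These groups did not overlap, but the log2 fold change of 0.115 (standard error 0.0411) had an edgeR adjusted p of 0.572. Slc1a4, which encodes the neutral amino acid exchanger ASCT1 and is a close relative of Slc1a5, had a log2 fold change of 0.108 (standard error 0.0537), and Slc7a1 and Slc38a6, a further gene of the Slc38 family, had 0.070 (standard error 0.044) and 0.153 (standard error 0.112).

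Of 21 intracellular carriers 17 were tested and 0 were called, with a median log2 fold change of 0.005. Slc25a13, the mitochondrial aspartate and glutamate carrier citrin, had 42.5, 45.8, 44.6 and 46 CPM in empty plasmid libraries and 50, 50.1, 49.7 and 49.2 CPM in Yy1 plasmid libraries. Its groups did not overlap either, and its log2 fold change was 0.153 (standard error 0.0447, adjusted p by edgeR = 0.264). Sfxn3, Slc25a2 and Slc25a29 had log2 fold changes of 0.100 (standard error 0.0684), 0.448 (standard error 0.324) and -0.140 (standard error 0.103).

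For the ATF4 response, several of whose targets are among the transporters, 26 of 27 genes were tested and 0 were called. There were 6 estimates above and 20 below 0, with a median log2 fold change of -0.036 beside -0.0025 over all tested genes. The gene left untested was Ddit3. Its symbol was matched to a gene model of 105 bases with 0 counts in every library, so the level of Ddit3 was not assessed. Atf4 itself stood at 251, 249, 245 and 251 CPM in empty plasmid libraries and 239, 232, 233 and 239 CPM in Yy1 plasmid libraries. These groups did not overlap, at a log2 fold change of -0.079 (standard error 0.0364, adjusted p by edgeR = 0.89). Nupr1, which encodes a small chromatin protein induced by stress, had -0.282 (standard error 0.0777, adjusted p by edgeR = 0.189). In all, 2 of the 26 had an unadjusted edgeR p under 0.05. Over all tested genes 5.42% did, so this small count does not set the list apart. Ppp1r15a and Stc2 had -0.143 (standard error 0.0676) and 0.777 (standard error 0.377). Stc2 was low, at 0.321 ± 0.157 CPM in empty and 0.567 ± 0.135 CPM in Yy1 plasmid libraries (SD, n = 4). Slc7a5, Slc3a2 and Slc38a2, known as ATF4 targets, had log2 fold changes of 0.086, -0.015 and 0.022 beside those of this list.

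Cytosolic aminoacyl-tRNA synthetases, which load amino acids onto tRNA and many of which respond to ATF4, were all tested. Of the 20, 13 estimates were below 0, 0 were called and the median log2 fold change was -0.012. The members with the smallest p were Tars (-0.090, standard error 0.0445), Farsb (-0.060, standard error 0.0403), Kars (0.041, standard error 0.0385) and Dars (-0.039, standard error 0.0371). For mTORC1 and its amino acid sensors 37 of 38 were tested, 24 with estimates above 0, with 0 called and a median log2 fold change of 0.011. The members with the smallest p here were Wdr24, a subunit of the GATOR2 complex (-0.125, standard error 0.0611), Eif4ebp1, a substrate of mTORC1 that is also in the ATF4 list (-0.135, standard error 0.0703), Flcn (0.110, standard error 0.0636) and Mlst8 (0.086, standard error 0.0535).

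Enzymes and receptors of glutamine, arginine and branched-chain amino acids gave 24 tested of 28, with 17 estimates above 0, 0 called and a median log2 fold change of 0.031. Bckdhb, a subunit of branched-chain ketoacid dehydrogenase, had 0.128 (standard error 0.0659), and Gprc6a, a receptor for basic amino acids, had 0.286 (standard error 0.197) at 1.37 ± 0.207 CPM in empty plasmid libraries (SD, n = 4). Gls2, a glutaminase, had -0.072 (standard error 0.0528) and Asl, a urea cycle enzyme, 0.112 (standard error 0.0827). Unadjusted edgeR p values under 0.05 were found for 0 of the 20 synthetase, 37 mTORC1 and 24 metabolism genes tested. Over all tested genes the share was 5.42%.

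**Figure D5:**
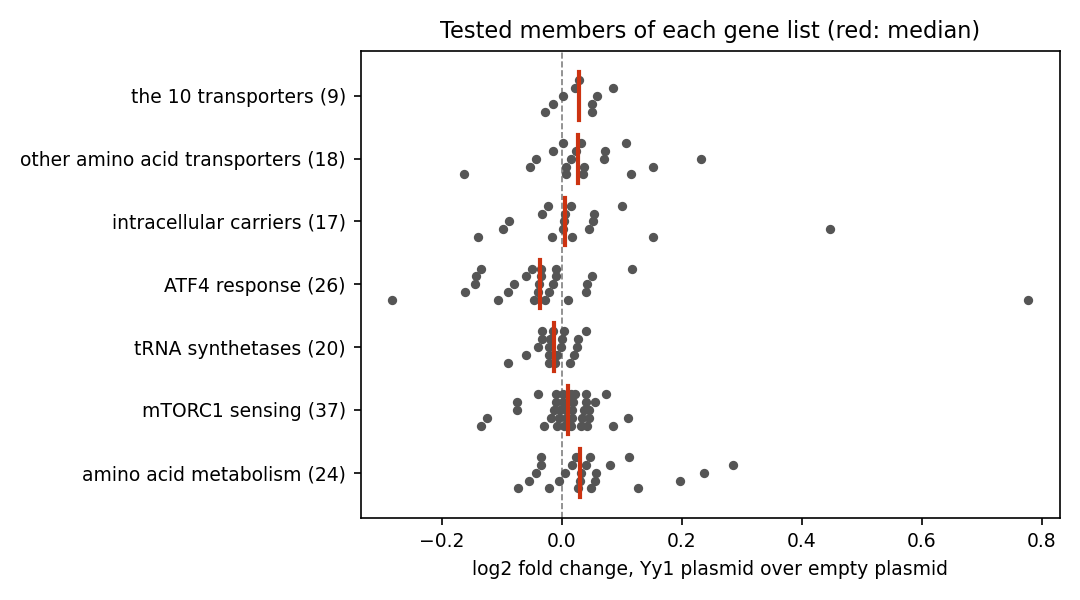
Log2 fold changes (Yy1 plasmid over empty plasmid) of the tested members of 7 gene lists, 1 point per gene, with the median of each list in red and the number tested in brackets. The medians lie between -0.036 and 0.031. The point near 0.8 is Stc2, with a mean of 0.321 CPM in empty and 0.567 CPM in Yy1 plasmid libraries.

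When the filter on low counts was dropped, 1 of the 162 genes of these lists then tested was called. Over all genes tested that way the share was 0.43%, so this count does not set the lists apart. It was Slc38a8, a glutamine carrier of the Slc38 family known from the retina. The gene had 0, 0, 0 and 0 counts in empty plasmid libraries and 4, 6, 7 and 6 counts in Yy1 plasmid libraries (edgeR adjusted p = 0.0304 over 40437 genes). Summed over the groups this was 0 against 23 counts, or at least 6.34-fold higher when a count of 0 is taken as 3 counts over the group. Its level with the Yy1 plasmid was 0.18 CPM, and it is named after its values were seen. Some of its values were fractional before rounding, by up to 0.352 counts.

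The markers of the labelled cell type were present. Gcg stood at 21228 and 21291 CPM in the groups, and 13 of 14 alpha cell markers were tested, with Gc at 0 in every library. Summed levels of the 14 were 28408 to 29968 CPM with the empty and 28914 to 29702 CPM with the Yy1 plasmid, most of it Gcg. Of the 13 tested, 5 had estimates above and 8 below 0, and 1 had an unadjusted edgeR p under 0.05, lower with the Yy1 plasmid. Ins1, Ins2, Ucn3 and Ppy were at 0 in every library, and the summed levels of the 13 other islet markers, 53.6 to 58.2 CPM in empty plasmid libraries and 49.7 to 59.7 CPM in Yy1 plasmid libraries, were nearly all Nkx6-1. The 13 acinar and duct markers summed to 26.3 to 29.3 and 29.1 to 32 CPM, with Ptf1a and Cftr at 0, and the 14 stromal, endothelial and immune markers to 4.26 to 7.27 and 5.12 to 7.24 CPM. Among the 4 lists edgeR called 0 genes, and the acinar and duct list had 6 of 6 tested estimates above 0. Its part in the transporter values was not tested. The member with the smallest p was Mafa among other islet markers (log2 fold change 0.977, standard error 0.43), Sox9 among acinar and duct markers (0.275, standard error 0.125) and Cd68 in the last list (-0.502, standard error 0.24).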

How the data were processed

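The deposited table holds estimated counts (expected counts) per Ensembl gene for 8 samples, not scaled for depth. Per the submitters' processing notes, fastp and kallisto were used with build GRCm39, without versions. How transcripts were summed to genes is not given in the sources used here. Of the values, 14.7% were not whole, and all were rounded. Symbols and transcript lengths came from GENCODE mouse release M21, of the older build GRCm38, which matched 48278 of 75078 IDs. No column was left unused. Kallisto divides reads between similar transcripts: of the 31-base words in the coding transcripts, 8.78% for Slc7a2, 4.37% for Slc3a2 and under 0.5% for the other transporters also occur in other genes.

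Low genes were removed by filterByExpr (at least 10 counts, total at least 15). TMM factors scaled the libraries, and tests were two-sided with edgeR 4.0.16 (robust quasi-likelihood) in R 4.3.3, with Benjamini-Hochberg adjustment over 15916 genes and a threshold of 0.05. The standard error is the log2 fold change divided by the square root of F. The fit was also run on simulated counts with known changes, all larger than the estimates of the transporters, and the outcome is not reported here. Alternatives used DESeq2 1.42.0, limma-voom (limma 3.58.1), other scalings, filters and lengths, and each library left out. No pair of replicates agreed within sampling noise (chi-square per degree of freedom from 2.76 to 12.4), so none was treated as 1 library deposited again. This does not show that they were separate cultures. Limits for a count of 0 hold for counting error alone, because several reads can stem from 1 molecule.

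The transporters and lists were chosen with earlier results of these data known, so no p is adjusted over them alone. All 10 transporters are named, and of each list the called genes and up to 4 with the smallest p (1 for each list of markers of other cells). Other named genes are the checks Yy1 and Gcg, the 3 genes nearest to Slc38a5 and to Slc7a5, and those said to be singled out. Some genes that this rule names are not reported here.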

Additional observations from a re-analysis of the deposited data

How the results depend on the processing

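The number of transporters called was 0 under all 17 alternatives. The number of genes called over the whole table was 82 of 15916 tested. It became 174 of 40437 with no filter on low counts and 54 of 13237 when 1 CPM in 4 or more libraries was required. Among coding genes only it was 10 of 12469, so calls fell by far more than the number of genes tested. Leaving out single libraries gave 65 to 87. Of the list genes 0 were called except with no filter, where 1 of 162 tested was, Slc38a8. Among the transporters, signs turned only when single libraries were left out: log2 fold changes then ranged from -0.017 to 0.053 for Slc38a4, from -0.002 to 0.054 for Slc38a2 (both lowest without empty plasmid 33), from -0.019 to 0.023 for Slc7a2 (below 0 in 4 of 8 such fits) and from -0.068 to 0.010 for Slc1a5 (above 0 without empty plasmid 32 or Yy1 plasmid 48). Over all alternatives Slc7a5 ranged from 0.042 to 0.113, Slc38a5 from 0.013 to 0.074, Slc38a1 from 0.019 to 0.091, Slc7a8 from 0.011 to 0.093 and Slc3a2 from -0.029 to -0.001. The order of levels per length changed for 4 of 10 genes with joined exons and for 0 to 2 when single libraries were left out, since Slc7a5 and Slc38a2 changed places without empty plasmid 32. The log2 difference of the Slc7a5 to Slc3a2 ratio ranged from 0.069 to 0.135 over left-out libraries, and passed 0.05 unadjusted without empty plasmid 32 (exact permutation p = 0.0286). No paired analysis was possible because the groups share no sample numbers. Depth limits Slc38a3 and Slc38a8, whose values rest on a few counts per library.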
